A study of Mus musculus with 2 samples.

Results

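The libraries were made from mouse lung cells sorted as alveolar type 2 (AT2) epithelial cells, the surfactant-making cells of the alveolus, yet each also held a small set of endothelial barcodes, the cells that line blood and lymph vessels. Such barcodes were chosen from both count matrices by 4 conditions: at least 500 genes, at most 20% of unique molecular identifiers (UMIs) from mitochondrially encoded genes, less than 15% from Sftpc (surfactant protein C), and at least 1 UMI of at least 4 of the 8 genes Cldn5, Cdh5, Ramp2, Calcrl, Egfl7, Pecam1, Tmem100 and Ptprb. The library labelled IPKO held 61 of them among 8072 kept barcodes (0.756%, exact 95% interval 0.579% to 0.970%), and the library labelled WT held 63 among 6745 (0.934%, 0.718% to 1.19%). Together they were 124 of 14817 kept barcodes. IPKO denotes IP-/- mice, which lack the prostaglandin I2 receptor encoded by Ptgir, and WT denotes wild-type mice. Both libraries came from lungs of male mice, both from cells sorted as EpCAM-positive and without CD24, Sca-1, CD31, CD34 or CD45. The labels name no injury, treatment, age, strain or number of animals. With 1 library per genotype no difference between genotypes could be tested, and the 95% intervals below express the error of counting UMIs or barcodes and nothing else.

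The targeted gene did not follow the labels. All kept barcodes held 328 Ptgir UMIs labelled IPKO and 1 labelled WT, and the endothelial barcodes held 2 UMIs in 2 barcodes labelled IPKO and 0 labelled WT. Ptgir lies on chromosome 7, 16906490 to 16910905 (GRCm38), and the labels do not say which part of it was deleted. Whether its 3' tags lie in that part is therefore not known. AT2 barcodes held 296 Ptgir UMIs labelled IPKO and 0 labelled WT. Whether the labels of the libraries were exchanged was not tested, and an exchange would turn the sign of every ratio below. Values are therefore given for the library labelled IPKO and the library labelled WT. The endothelial barcodes held 260523 UMIs labelled IPKO and 251439 labelled WT. Their median was 3197 UMIs and 1539 genes labelled IPKO, and 3348 UMIs and 1590 genes labelled WT, against medians of 17179 and 18405 UMIs in the AT2 barcodes of the same libraries (Sftpc at least 15% of UMIs). The libraries shared 79 barcode sequences, 16 of them among kept barcodes and 0 among the endothelial barcodes.

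Endothelial cells are joined by VE-cadherin and claudin-5 and carry PECAM-1 (CD31) on their surface. The alveolar wall of the mouse has 2 kinds of capillary cell: general capillary cells, which include the progenitors of the capillary bed and carry the lipase anchor GPIHBP1, and aerocytes, large cells specialised for gas exchange that are marked by carbonic anhydrase 4 and the endothelin receptor EDNRB. Veins, arteries and lymphatic vessels have marker genes of their own. Prostacyclin, the ligand of the receptor encoded by Ptgir, is itself made by endothelial cells and relaxes vessels.

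Of the 8 genes that chose the barcodes, 3 have a promoter in the RefSeq table used here (GRCm38.p6, 250 bases before to 50 after a transcription start). These are shown because all barcodes described here rest on their transcripts, with Cldn5 encoding the tight junction protein claudin-5, Calcrl the adrenomedullin receptor and Egfl7 a secreted endothelial factor. Capitals mark the letters ACAGGAAG or CTTCCTGT (both strands searched), which hold the GGAA core read by ETS family factors.
Calcrl, chr2:84425217-84425516, minus strand: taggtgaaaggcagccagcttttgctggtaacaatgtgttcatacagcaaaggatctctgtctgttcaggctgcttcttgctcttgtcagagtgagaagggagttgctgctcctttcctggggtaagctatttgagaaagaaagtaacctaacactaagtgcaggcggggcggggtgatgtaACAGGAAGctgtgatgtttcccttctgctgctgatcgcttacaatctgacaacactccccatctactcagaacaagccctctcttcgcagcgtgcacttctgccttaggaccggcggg
Egfl7, chr2:26580833-26581132, plus strand: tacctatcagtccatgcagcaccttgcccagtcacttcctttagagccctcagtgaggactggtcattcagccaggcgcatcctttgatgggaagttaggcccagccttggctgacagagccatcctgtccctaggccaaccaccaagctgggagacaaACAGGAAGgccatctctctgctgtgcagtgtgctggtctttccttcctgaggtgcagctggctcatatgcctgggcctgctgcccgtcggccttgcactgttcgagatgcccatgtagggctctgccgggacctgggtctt
Cldn5, chr16:18776597-18776896, plus strand: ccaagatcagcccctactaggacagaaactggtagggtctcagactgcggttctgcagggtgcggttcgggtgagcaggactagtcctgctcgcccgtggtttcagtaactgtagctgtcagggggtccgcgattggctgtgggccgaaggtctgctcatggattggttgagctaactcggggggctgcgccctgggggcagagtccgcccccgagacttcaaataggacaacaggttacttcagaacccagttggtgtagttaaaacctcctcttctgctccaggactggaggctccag
The letters stood once in the Calcrl window, once in the Egfl7 window shown and nowhere in the Cldn5 window. Egfl7 has 3 windows in the table, and 2 of them held the letters. For a gene with several windows the one with the most matches is shown, so the match in the Egfl7 window follows from that choice. Among all 32851 windows 1175 (3.58%) held them, and 1097 of 27025 genes (4.06%) had at least 1 such window. A match of letters is a description of the window and was not tied to any measurement. Of the ETS factors themselves, Ets1 had 93 UMIs labelled IPKO and 84 labelled WT in endothelial barcodes, Fli1 had 42 and 21, and Erg had 17 and 18.

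The 8 genes chose the barcodes, so their levels are a description. Cldn5 had 1061 UMIs (4073 CPM) labelled IPKO and 1121 UMIs (4458 CPM) labelled WT, where CPM are UMIs per 1000000 UMIs of the pooled barcodes, against 1.48 and 0.432 CPM in AT2 barcodes. Ramp2, the partner of Calcrl in the adrenomedullin receptor, had 980 UMIs (3762 CPM) labelled IPKO and 1085 UMIs (4315 CPM) labelled WT. The other 6 ranged from 1113 CPM (Pecam1) to 2326 CPM (Calcrl) labelled IPKO, and from 1293 CPM (Pecam1) to 2323 CPM (Calcrl) labelled WT. All 8 genes were found together in 40 barcodes labelled IPKO and 43 labelled WT. Just inside the rule lay 2 barcodes labelled IPKO and 0 labelled WT with exactly 4 of the genes, and just outside it 4 and 1 barcodes with exactly 3. Another 12 barcodes labelled IPKO and 8 labelled WT held at least 4 of the genes but were left out by their Sftpc share, which started at 15.3%. Those left out were rich in RNA, with medians of 18709 and 20443.5 UMIs.

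The sort asked for EpCAM and against 5 other surface proteins, and the transcripts of several of these antigens ran the other way. Epcam had 5 UMIs labelled IPKO and 3 labelled WT (19.2 and 11.9 CPM), against 184 and 156 CPM in AT2 barcodes. These few UMIs are close in number to the 5.11 and 3.73 that the AT2 RNA described next would bring along. Ly6a, which encodes Sca-1, had 661 UMIs (2537 CPM) labelled IPKO and 941 UMIs (3742 CPM) labelled WT, and Pecam1, which encodes CD31, had 290 and 325 UMIs. Thinned to 2000 UMIs per barcode, which left out 14 members labelled IPKO and 8 labelled WT, Ly6a was found in 92.9% of endothelial barcodes labelled IPKO and 95.5% of those labelled WT, against 1.35% and 0.501% of AT2 barcodes. Cd34 had 74 and 66 UMIs in 25 barcodes of each library. It was uneven: aerocyte-like barcodes (below) held 43 and 41 of these UMIs. Cd24a had 32 and 47 UMIs, and Ptprc, the gene of CD45, had 7 and 0. A transcript does not show whether its protein was on the surface when the cells were sorted.

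Endothelial barcodes carried AT2 RNA in both libraries. A list of 18 AT2 genes, which leaves out Sftpc, gave 0.659% of endothelial UMIs labelled IPKO and 0.641% labelled WT, against 6.18% and 6.71% of the UMIs of AT2 barcodes. Divided, this is an AT2 share of 10.7% labelled IPKO and 9.54% labelled WT. The average hides 1 barcode in each library. An aerocyte-like barcode labelled IPKO had 22700 UMIs, of which 10.6% were Sftpc, and held 64.7% of the AT2-list UMIs. Its counterpart labelled WT, also aerocyte-like, had 18451 UMIs, 11.5% of them Sftpc, and held 63.4%. Without these barcodes the AT2 share was 4.12% labelled IPKO and 3.77% labelled WT, and the next highest Sftpc shares were 2.62% and 2.59%. In the other barcodes the Sftpc count was low, with a median of 20 UMIs labelled IPKO and 18.5 labelled WT, and 57 of them labelled IPKO and 62 labelled WT held at most 50. Measured by Sftpc instead of the list, the AT2 share of all endothelial barcodes was 6.78% labelled IPKO and 6.09% labelled WT. By the list, lymphocyte barcodes had AT2 shares of 12.5% and 17.7%, and myeloid barcodes 12.5% and 2.53%.

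**Figure D1:**
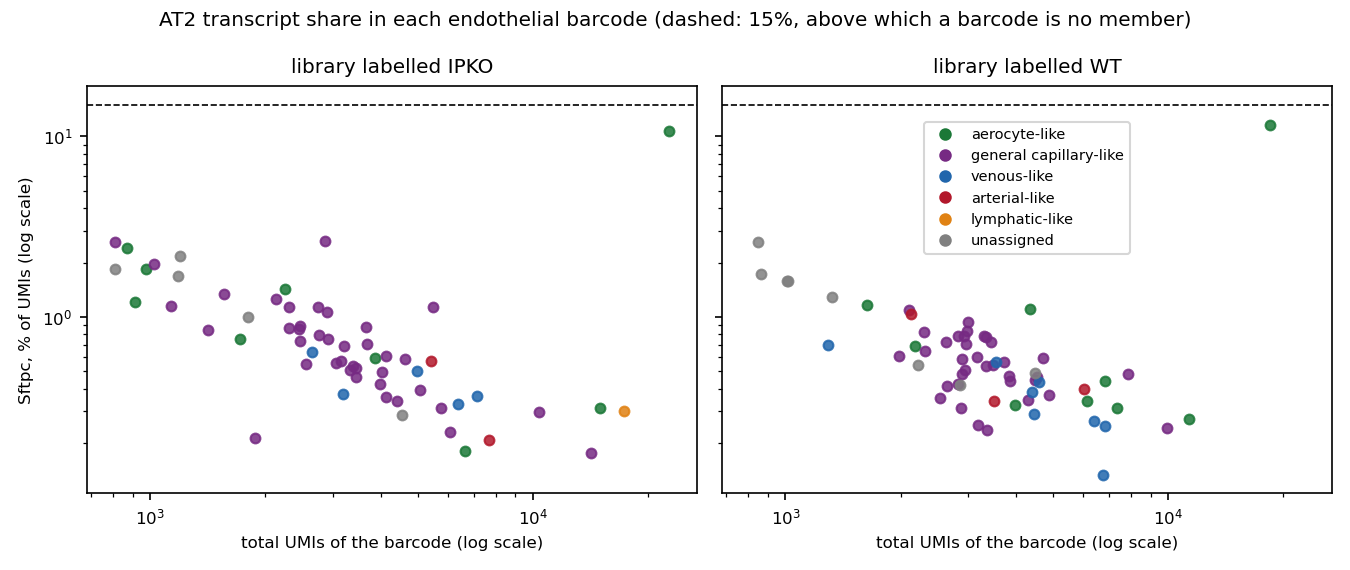
Sftpc as a percentage of UMIs (vertical, log scale) against total UMIs (horizontal, log scale) for each endothelial barcode, IPKO left and WT right, coloured by vessel class. In each library 1 aerocyte-like barcode stands at over 10%, with 22700 UMIs labelled IPKO and 18451 labelled WT, and all others lie at 2.62% or lower.

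Markers of stromal and blood cells were scarce, while the alveolar type 1 list summed to more UMIs. The 14 genes of the alveolar type 1 list summed to 909 UMIs (3489 CPM) labelled IPKO and 1003 UMIs (3989 CPM) labelled WT, of which AT2 RNA would bring 79.1 and 62.6. Most of these UMIs were of Cav1, Emp2 and Clic5 (311, 209 and 172 labelled IPKO, 311, 287 and 174 labelled WT), while the type 1 marker Ager had 28 and 25. Emp2 stands on the aerocyte list too, and aerocyte-like barcodes (below) held 167 and 263 of its UMIs. The sum of the list therefore does not measure epithelial RNA. Airway epithelial genes summed to 191 and 40 UMIs, mostly Scgb1a1. The 11 mesenchymal genes summed to 7 UMIs labelled IPKO and 25 labelled WT, with 7 and 6 of them at 0, and the 11 pericyte and smooth muscle genes to 15 and 11. The 10 lymphocyte genes found in the files summed to 10 and 0 UMIs, and 10 platelet and erythroid genes to 3 and 0. Of 13 myeloid genes, 100 and 61 UMIs were found, most of those labelled WT being Plac8 (57 UMIs). Tyrobp, an adaptor of myeloid receptors, had 19 UMIs labelled IPKO, of which 17 came from 1 aerocyte-like barcode, and 1 labelled WT. The mesothelial genes summed to 0 and 2 UMIs. The 10 cell cycle genes summed to 29 and 14 UMIs, of which Pcna, a replication clamp, gave 19 and 10, and 6 genes, Mki67 and Top2a among them, had 0 in both libraries.

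Vessel class was assigned by 6 core genes per class (4 for lymphatic): a barcode took the class of which most core genes were detected, at least 3 and more than of any other class. Under this rule general capillary-like barcodes were most frequent, 39 of 61 (63.9%, 50.6% to 75.8%) labelled IPKO and 35 of 63 (55.6%, 42.5% to 68.1%) labelled WT. Aerocyte-like barcodes numbered 9 labelled IPKO (14.8%, 6.98% to 26.2%) and 9 labelled WT (14.3%, 6.75% to 25.4%). Venous-like barcodes numbered 5 and 8, arterial-like barcodes 2 and 3, and lymphatic-like barcodes 1 and 0 (0 of 63, which allows a share of up to 4.76% by the floor of 3 counts and 5.69% by the exact interval). No class applied to 5 and 8 barcodes, with medians of 1199 and 1169.5 UMIs and highest values of 4562 and 4503. The intervals of each class overlapped between the libraries. Which cells pass this sort sets these shares, so they are not shares of the lung.

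**Figure D2:**
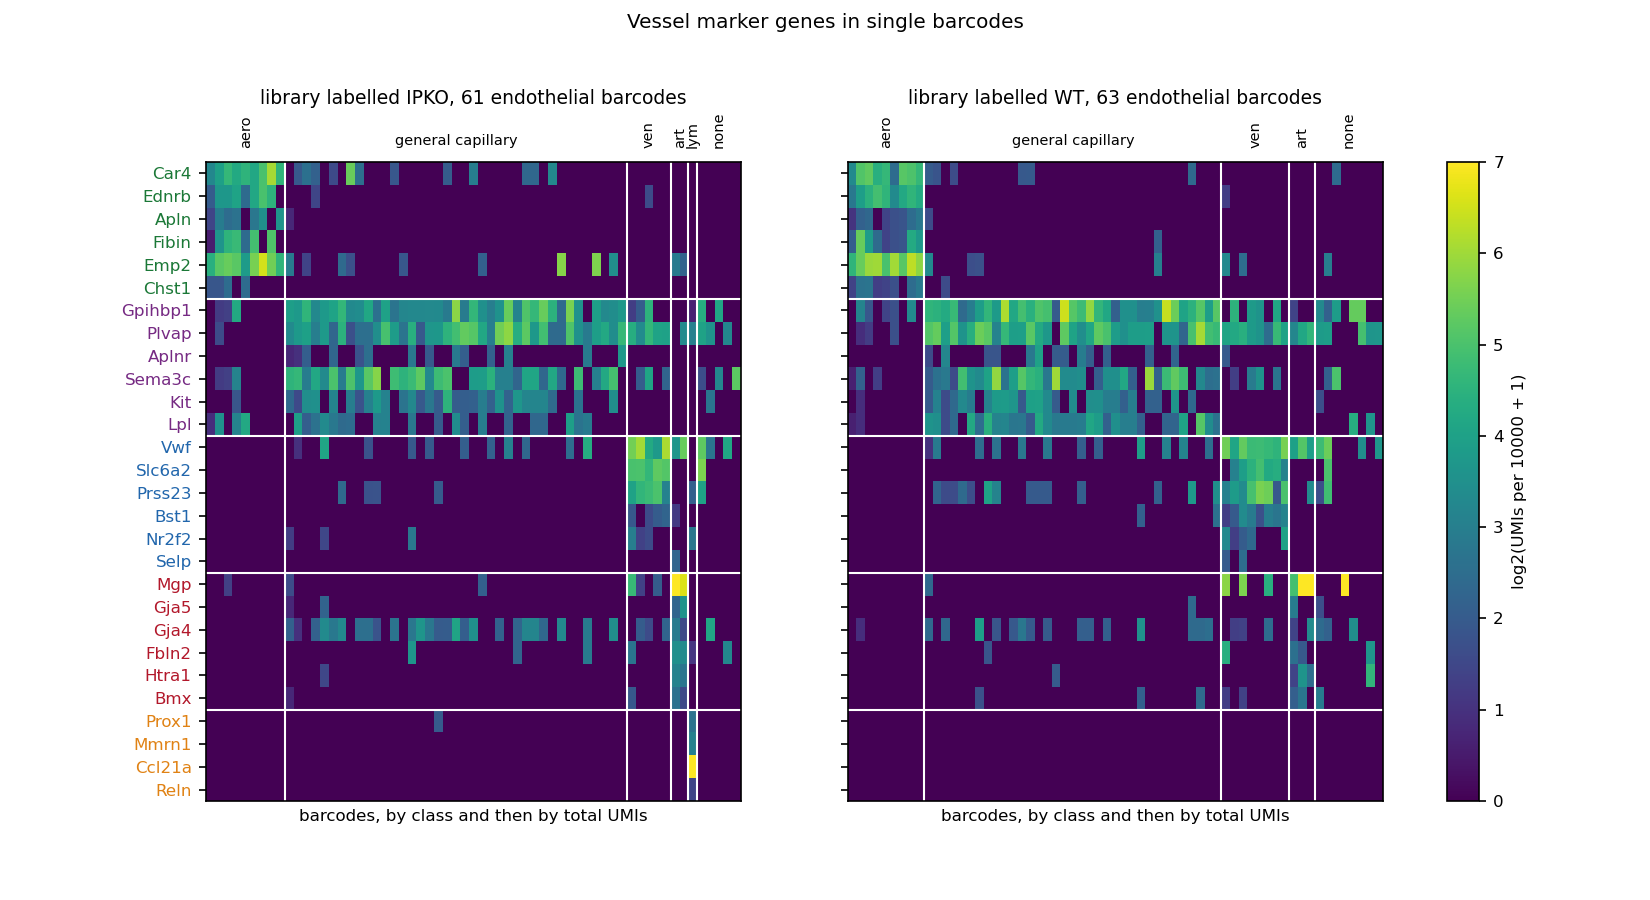
Vessel core genes (rows, grouped and coloured by class) in every endothelial barcode (columns), IPKO left and WT right, as log2 of UMIs per 10000 plus 1. Columns are ordered by the class that these genes assigned, so blocks follow from the order. The genes overlap: Car4 and Gpihbp1 were found together in 15 barcodes labelled IPKO and 12 labelled WT. Ccl21a stands in 1 lymphatic-like barcode labelled IPKO.

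The core genes made the classes, so their levels are again a description. Car4, carbonic anhydrase 4, was found in all 9 aerocyte-like barcodes of each library, with 83 UMIs (1513 CPM) labelled IPKO and 139 UMIs (2230.2 CPM) labelled WT. It was also present at low counts in general capillary-like barcodes, 37 UMIs labelled IPKO, of which 18 came from 1 barcode, and 9 labelled WT. Ednrb, the endothelin receptor type B, was sharper: aerocyte-like barcodes held 48 and 96 UMIs, and the general capillary-like barcodes 1 and 0. Emp2, a membrane protein gene that alveolar type 1 cells also express, had 167 and 263 UMIs in aerocyte-like barcodes.

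General capillary-like barcodes held 214 of 250 Gpihbp1 UMIs labelled IPKO and 307 of 371 labelled WT. Kit, the stem cell factor receptor, was nearly limited to them, with 77 of 79 and 73 of 75 UMIs. Plvap, which forms the diaphragms of endothelial pores, was not: all 5 venous-like barcodes labelled IPKO and all 8 labelled WT held it too. Sema3c, a secreted semaphorin, had 256 and 186 UMIs in general capillary-like barcodes, against 6 and 6 in aerocyte-like ones. Lpl, another core gene of this class, did not separate them labelled IPKO. It stood at 389 CPM in general capillary-like and 456 CPM in aerocyte-like barcodes labelled IPKO, and at 827 and 32.1 CPM labelled WT.

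Slc6a2, the noradrenaline transporter, had 75 UMIs in 5 of 5 venous-like barcodes labelled IPKO and 53 in 7 of 8 labelled WT. It was at 0 in all aerocyte-like, general capillary-like and arterial-like barcodes of both libraries, and unassigned barcodes held 22 UMIs labelled IPKO and 9 labelled WT, each in 1 barcode. Vwf, von Willebrand factor, was in every venous-like and every arterial-like barcode and in no aerocyte-like one. Mgp, matrix Gla protein, was the most abundant arterial core gene, with 151 and 53 UMIs in the 2 arterial-like barcodes labelled IPKO and 18, 46 and 27 in the 3 labelled WT. Mgp did not separate arteries from veins, since 3 of 5 and 3 of 8 venous-like barcodes held 20 and 77 UMIs of it. The lymphatic-like barcode had 17360 UMIs, among them 291 of Ccl21a, a chemokine of lymphatic vessels, 9 of Prox1, the regulator of lymphatic identity, and 13 of Mmrn1. Lyve1, often used as a lymphatic marker, had 273 UMIs labelled IPKO and 368 labelled WT, and 0 of them came from the lymphatic-like barcode.

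Genes outside the core set were compared between classes within each library, as a description with no test, without barcodes at or above 5% Sftpc and over genes with at least 20 UMIs in each library. Of 1314 genes, 13 (0.989%) were at least 4-fold higher in aerocyte-like than in general capillary-like barcodes of both libraries, and 26 (1.98%) were at least 4-fold lower in both. Igfbp7, a secreted IGF-binding protein, stood at 5753 against 524 CPM labelled IPKO and at 5721 against 329 CPM labelled WT, aerocyte-like against general capillary-like. Kdr, the main VEGF receptor, stood at 1897 against 439 CPM and at 3214 against 378 CPM. The T-box factor Tbx2 and the kit ligand gene Kitl were higher likewise. Kit, which encodes the receptor, lay on the other side, but it is a core gene, so the class rule set its side. Among the lower genes were Cd93 (124 against 2286 CPM and 137 against 2587 CPM), the chemokine Cxcl12, the arterial factor Sox17, endothelin-1 (Edn1), the angiopoietin receptor Tek and Vegfa. Ptprb, the phosphatase VE-PTP and 1 of the 8 genes that chose the barcodes, was lower too, with 11 UMIs in 9 aerocyte-like barcodes labelled IPKO and 3 in the 9 labelled WT. All of these genes stand on the gene lists used, and which of them to name was chosen after their values were seen.

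In venous-like against general capillary-like barcodes, 12 of 1218 genes (0.985%) were at least 4-fold higher in both libraries and 14 (1.15%) were at least 4-fold lower. Cytl1, a secreted cytokine-like protein, had 25 and 53 UMIs in venous-like barcodes and 0 in general capillary-like ones. Eln, elastin, stood at 534 against 70.8 CPM labelled IPKO and 1592 against 112 CPM labelled WT, and Timp3, an inhibitor of matrix proteases, at 1437 against 205 CPM and 3002 against 449.9 CPM. The immediate early genes Fosb, Egr1 and Fos were also at least 4-fold higher in venous-like barcodes of both libraries. With 2 and 3 barcodes, arterial-like levels rest on few cells: 9 of 1054 genes (0.854%) were at least 4-fold higher than in general capillary-like barcodes and 14 (1.33%) at least 4-fold lower. Vcam1, the leukocyte adhesion molecule, had 18 and 22 UMIs in arterial-like barcodes, against 2 and 0 in general capillary-like ones. It stands on the venous list, and venous-like barcodes held 10 and 16 UMIs of it. Cytl1, Eln and Timp3 stand on no list and were picked after their values were seen.

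Beyond the genes of the rule, Hpgd, the enzyme that degrades prostaglandins, was among the 15 genes in which endothelial barcodes stood farthest above AT2 barcodes, at 3531 and 2975 CPM against 1.99 and 1.34 CPM in AT2 barcodes. Others in this set were Ctla2a, Cd93, Tm4sf1, Klf2, Cavin2 (named Sdpr in the files) and the interferon-induced Ifitm3. Other prostaglandin genes were low: Ptgis, prostacyclin synthase, had 8 and 16 UMIs, and Ptgs1, cyclooxygenase 1, 25 and 32. Ptgs2, cyclooxygenase 2, had 41 and 3 UMIs, and 23 of those labelled IPKO came from the aerocyte-like barcode with the highest Sftpc share. Among the lung endothelial transcription factors, Foxf1 had 198 UMIs (760.0 CPM) labelled IPKO and 174 UMIs (692 CPM) labelled WT and Sox18 112 and 100 UMIs. Fabp4, a fatty acid carrier often used for capillaries, was rare, in 4 barcodes of each library.

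Between the libraries, 1806 genes had at least 50 UMIs over all endothelial barcodes. In the library labelled IPKO 29 genes (1.61%) were at least 2-fold higher and 35 (1.94%) at least 2-fold lower, 3.54% in either direction, and the median log2 ratio, IPKO over WT, was 0.00. In general capillary-like barcodes alone, with 890 genes, the counts were 17 (1.91%) and 20 (2.25%). Ratios given below for aerocyte-like barcodes keep the barcode with the highest Sftpc share of each library. That barcode held 22700 of 54859 aerocyte-like UMIs labelled IPKO and 18451 of 62326 labelled WT. Cell state, vessel class and AT2 RNA all enter a pooled ratio, so the class counts above, the AT2 shares of 10.7% and 9.54% and the ratio in AT2 barcodes are given beside the results. With 1 library per label, a difference between the libraries cannot be told apart from a difference between genotypes.

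**Figure D3:**
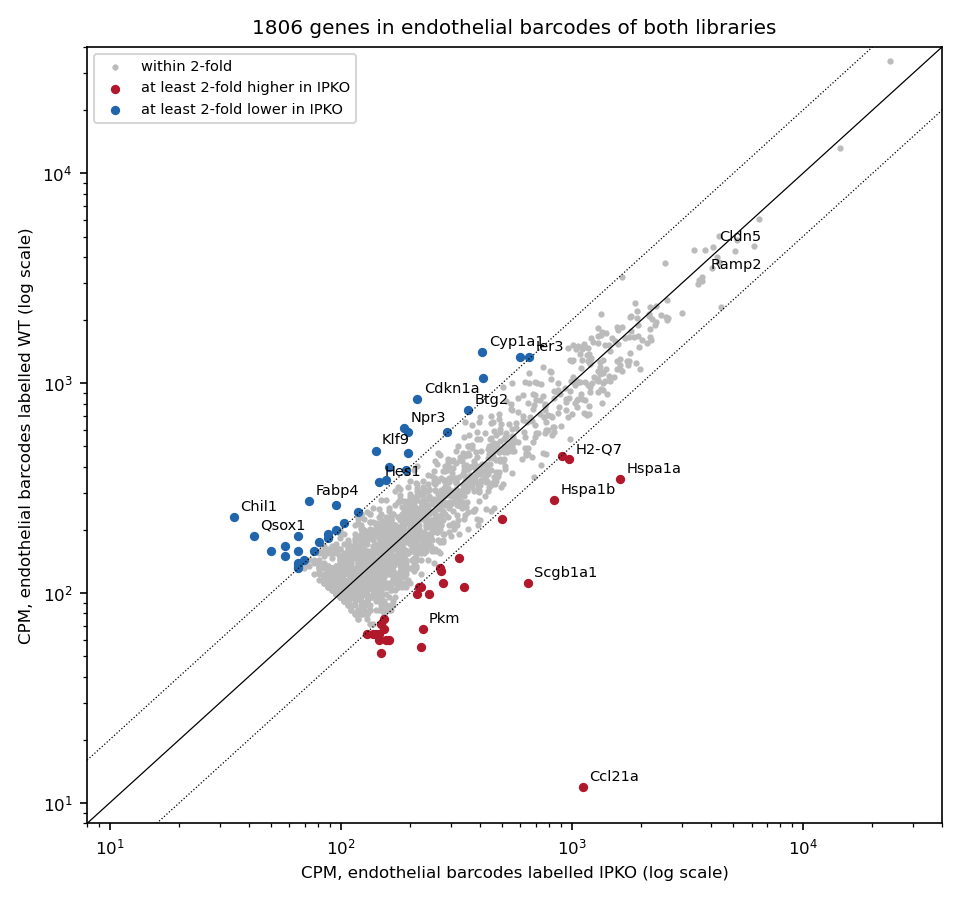
CPM of 1806 genes in endothelial barcodes labelled IPKO (horizontal, log scale) and labelled WT (vertical, log scale), with lines of equality (solid) and of 2-fold difference (dotted). The 29 red and 35 blue genes lie beyond 2-fold, and Ccl21a, at 0 UMIs labelled WT, is drawn at the floor of 3 counts.

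Heat shock genes stood higher in IPKO-labelled endothelial barcodes. All 11 with enough UMIs had a ratio above 0, with a median log2 ratio of 0.50, and 3 were at least 2-fold higher, against 1.61% of all genes. In AT2 barcodes the median of the same genes was 0.63. Hspa1a, an inducible HSP70 chaperone (chromosome 17, 34969190 to 34972156, GRCm38), had 423 UMIs (1624 CPM) labelled IPKO and 88 UMIs (350.0 CPM) labelled WT (log2 ratio 2.21, 1.88 to 2.56), and 2.81 in AT2 barcodes. It was detected in 43 of 61 barcodes labelled IPKO, with a median of 870.3 CPM and a highest value of 12782, and in 23 of 63 labelled WT, with a median of 0 and a highest value of 3349 CPM. The 2 distributions overlapped, but 22 barcodes labelled IPKO and 7 labelled WT held at least 5 UMIs. The same direction stood in general capillary-like (267 and 39 UMIs, log2 ratio 2.59), aerocyte-like (61 and 12 UMIs, log2 ratio 2.53) and venous-like barcodes (49 and 26 UMIs, log2 ratio 1.57). Hspa1b, its near-identical neighbour that can share reads with it, had a log2 ratio of 1.59 (1.20 to 2.00), and the co-chaperone Dnajb1 1.40 (0.52 to 2.36). Hspa8, the constitutive HSP70, had 512 and 293 UMIs and a log2 ratio of 0.75 (0.54 to 0.97), short of 2-fold. At the pooled share, AT2 RNA would bring 15.4 of 423 Hspa1a UMIs labelled IPKO and 1.89 of 88 labelled WT.

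Antigen presentation genes also stood higher there. All 11 MHC class I pathway genes had a ratio above 0, with a median of 0.47 in endothelial barcodes and 0.68 in AT2 barcodes, and 2 were at least 2-fold higher, against 1.61% of all genes. These were H2-Q7, a non-classical class I gene, with 254 UMIs (975 CPM) labelled IPKO and 109 UMIs (434 CPM) labelled WT (log2 ratio 1.17, 0.84 to 1.51), and H2-Q6, with 89 and 27 UMIs (1.67, 1.03 to 2.35). These neighbours are close copies, and how reads were divided between them was not measured. B2m, the shared light chain, had 781 and 546 UMIs (0.47, 0.31 to 0.63). Class II genes, which antigen-presenting cells use and AT2 cells also express, had a median of 1.04 over 4 genes. By class, H2-Aa had 69 and 20 UMIs, log2 ratio 1.60 in general capillary-like barcodes, 5 and 7 UMIs, log2 ratio -0.30 in aerocyte-like and 4 and 9 UMIs, log2 ratio -0.52 in venous-like ones, and H2-Ab1 had 82 and 27 UMIs in general capillary-like and 0 and 12 in venous-like barcodes. Cd74, the invariant chain, had 179 UMIs labelled IPKO, of which AT2 RNA would bring 78.2, and 90 labelled WT, of which it would bring 40.2. Over all alternative settings, subtraction of AT2 RNA included, the class II median ranged from 0.90 to 1.51. Class II and myeloid UMIs were both more numerous in the library labelled IPKO (460 against 215, and 100 against 61), and the part of myeloid RNA in this was not tested. By class, the myeloid gene Tyrobp had 1 and 1 UMIs in general capillary-like barcodes and 18 and 0 in aerocyte-like ones. Interferon-induced genes did not follow as a list, with a median of 0.02 over 9 genes (-0.30 to 0.30 over all settings).

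**Figure D4:**
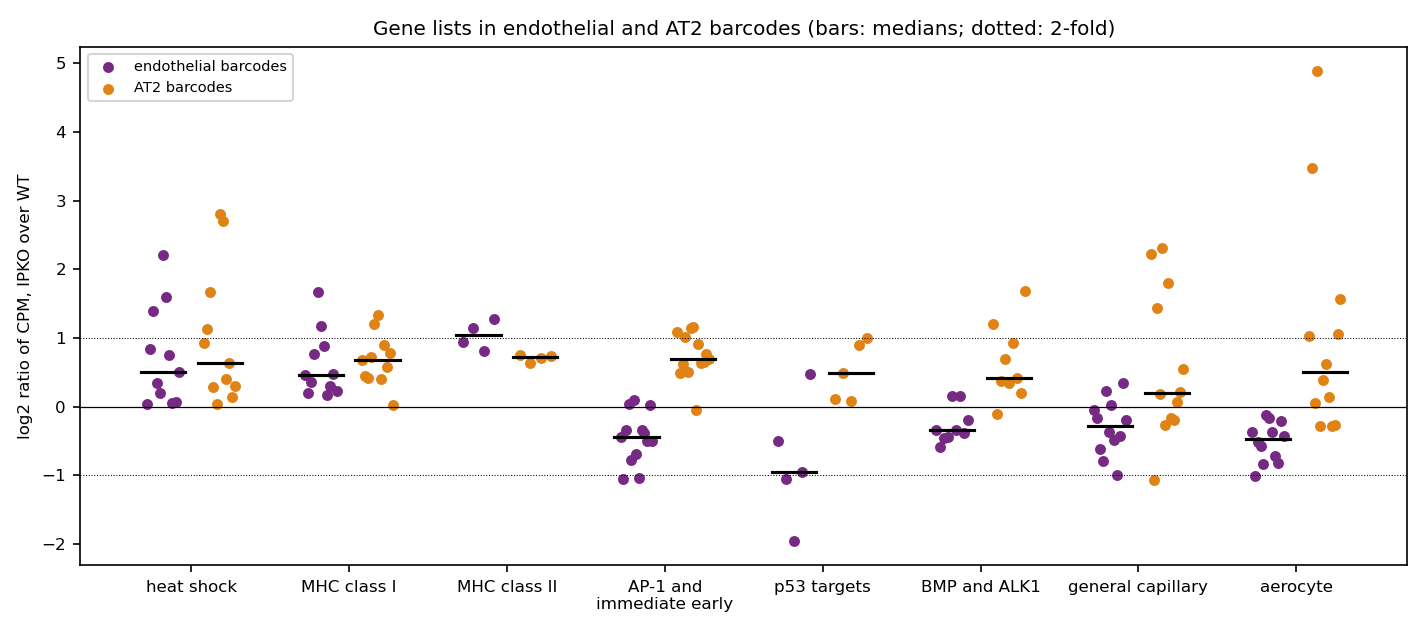
Log2 ratio of CPM, IPKO over WT, for each gene of 8 lists with at least 50 UMIs, in endothelial barcodes (purple, left) and in AT2 barcodes (orange, right), with medians as bars. Heat shock and MHC genes lie above 0 in both populations, while AP-1 and p53 list genes lie mostly below 0 in endothelial barcodes and above 0 in AT2 barcodes.

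The series title names JUN and p53, and most genes of both lists had a ratio below 0 in endothelial barcodes. Of 13 AP-1 and immediate early genes, 10 had a ratio below 0, with a median of -0.44, and 2 were at least 2-fold lower (1.94% of all genes were). In AT2 barcodes the median of these genes was 0.69. Jun had 884 UMIs (3393 CPM) labelled IPKO and 1082 UMIs (4303 CPM) labelled WT (log2 ratio -0.34, -0.47 to -0.21), and 0.91 in AT2 barcodes. Ier2, a small immediate early gene, had 163 and 254 UMIs (-0.69, -0.98 to -0.40), and 1.16 in AT2 barcodes. Fosb and Egr1 were near equal in endothelial barcodes (0.09 and 0.04). The 2 past 2-fold were Ier3, a regulator of cell survival (170 and 336 UMIs, -1.03, -1.31 to -0.76), and Btg2, an antiproliferative gene (93 and 187 UMIs, -1.06, -1.43 to -0.69). For Junb and Fos the 2 capillary classes differed in direction. In aerocyte-like barcodes Junb (54 and 26 UMIs, log2 ratio 1.24) and Fos (62 and 40 UMIs, log2 ratio 0.82) stood higher in the library labelled IPKO. In general capillary-like barcodes Junb had 125 and 148 UMIs, log2 ratio -0.43, and Fos 44 and 70 UMIs, log2 ratio -0.85. Other genes of the list shared a direction. Egr1 stood higher in aerocyte-like (39 and 20 UMIs, log2 ratio 1.15) and in general capillary-like barcodes (28 and 19 UMIs, log2 ratio 0.38). Jun was lower in both (log2 ratio -0.21 in aerocyte-like and -0.42 in general capillary-like barcodes), as was Ier2 (-0.15 and -0.41). The aerocyte-like counts include the barcode of each library with over 10% Sftpc, and the part of AT2 RNA in these ratios was not measured. In the 2 and 3 arterial-like barcodes Jun had 4 and 54 UMIs, log2 ratio -3.92, and Junb 6 and 32 UMIs, log2 ratio -2.58. Neither the difference between classes nor that between endothelial and AT2 barcodes was tested.

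Of 5 p53 target genes with enough UMIs, 4 had a ratio below 0, with a median of -0.96. Of the 5, 2 were at least 2-fold lower, Cdkn1a and Btg2, against 1.94% of all genes. Btg2 stands on both lists. Cdkn1a, the cell cycle inhibitor p21 (chromosome 17, 29090976 to 29100727, GRCm38), had 56 UMIs (215 CPM) labelled IPKO and 211 UMIs (839 CPM) labelled WT (log2 ratio -1.96, -2.42 to -1.53), against 44.9 and 42.7 CPM in AT2 barcodes, a log2 ratio of 0.07. It was detected in 24 of 61 barcodes labelled IPKO (median 0, highest 2294 CPM) and in 39 of 63 labelled WT (median 302, highest 5060.1 CPM). The distributions overlapped, with 2 and 13 barcodes at 5 UMIs or more. Both capillary classes had it lower, general capillary-like barcodes with 25 and 99 UMIs, log2 ratio -2.17, and aerocyte-like ones with 18 and 93 UMIs, log2 ratio -2.19. Venous-like barcodes ran the other way on few UMIs, 9 labelled IPKO and 3 labelled WT. Other p53 targets were not all lower: Plk2 had 56 and 39 UMIs (0.47, -0.14 to 1.10), and Trp53 itself had 18 and 12.

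Cyp1a1, the aryl hydrocarbon receptor target that encodes a cytochrome P450 enzyme (chromosome 9, 57687928 to 57703824, GRCm38), had 107 UMIs (411 CPM) labelled IPKO and 353 UMIs (1404 CPM) labelled WT (log2 ratio -1.77, -2.10 to -1.46). AT2 barcodes had 0.153 and 0.0777 CPM. It was detected in 27 of 61 and 48 of 63 barcodes, and was lower in general capillary-like (64 and 130 UMIs, log2 ratio -1.21), aerocyte-like (30 and 145 UMIs, log2 ratio -2.09) and venous-like barcodes (9 and 64 UMIs, log2 ratio -2.18). Npr3, the clearance receptor of natriuretic peptides, had 49 UMIs (188 CPM) labelled IPKO and 154 UMIs (612 CPM) labelled WT (-1.70, -2.20 to -1.23) and was lower in general capillary-like barcodes (44 and 127 UMIs, log2 ratio -1.71). Klf9, a Krüppel-like factor, had 37 and 120 UMIs (-1.75, -2.32 to -1.21). Qsox1, a sulfhydryl oxidase, had 11 and 47 (-2.15, -3.24 to -1.18). Pdlim5, Tinagl1 and Emc10 were lower by log2 ratios of -1.67, -1.58 and -1.54. Nr1d1, a repressor of the circadian clock, had 0 UMIs labelled IPKO and 32 labelled WT, and 3.81 and 84.0 CPM in AT2 barcodes.

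Some of the other lowest and highest ratios rested on a single barcode or were of genes that AT2 RNA carries. Chil1, a chitinase-like protein of AT2 cells, had 9 and 58 UMIs, where AT2 RNA would bring 13.9 and 60.0, and its log2 ratio was -2.74 in endothelial and -2.32 in AT2 barcodes. Fabp4 had 19 and 69 UMIs, and 45 of those labelled WT came from 1 venous-like barcode. Ccl21a, with 291 and 0 UMIs, came from the lymphatic-like barcode alone. Scgb1a1, the club cell secretoglobin, had 168 UMIs labelled IPKO, 111 of them in 1 barcode, and 28 labelled WT. Without the highest barcode of each library its log2 ratio was 1.20, against 2.53 with all. AT2 RNA would bring 8.71 and 29.1 of its UMIs, and after subtraction, with WT at the floor of 3 counts, the ratio was 5.70. Pkm, the glycolytic enzyme pyruvate kinase, was spread more widely, with 59 UMIs in 29 barcodes labelled IPKO and 17 in 15 labelled WT (1.74, 0.95 to 2.62). Prdx5, an antioxidant peroxiredoxin, had 58 and 14 UMIs (2.00, 1.14 to 2.96), and the sodium channel subunit Scn3b and the GTPase Irgm1 had log2 ratios of 1.53 and 1.43.

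**Figure D5:**
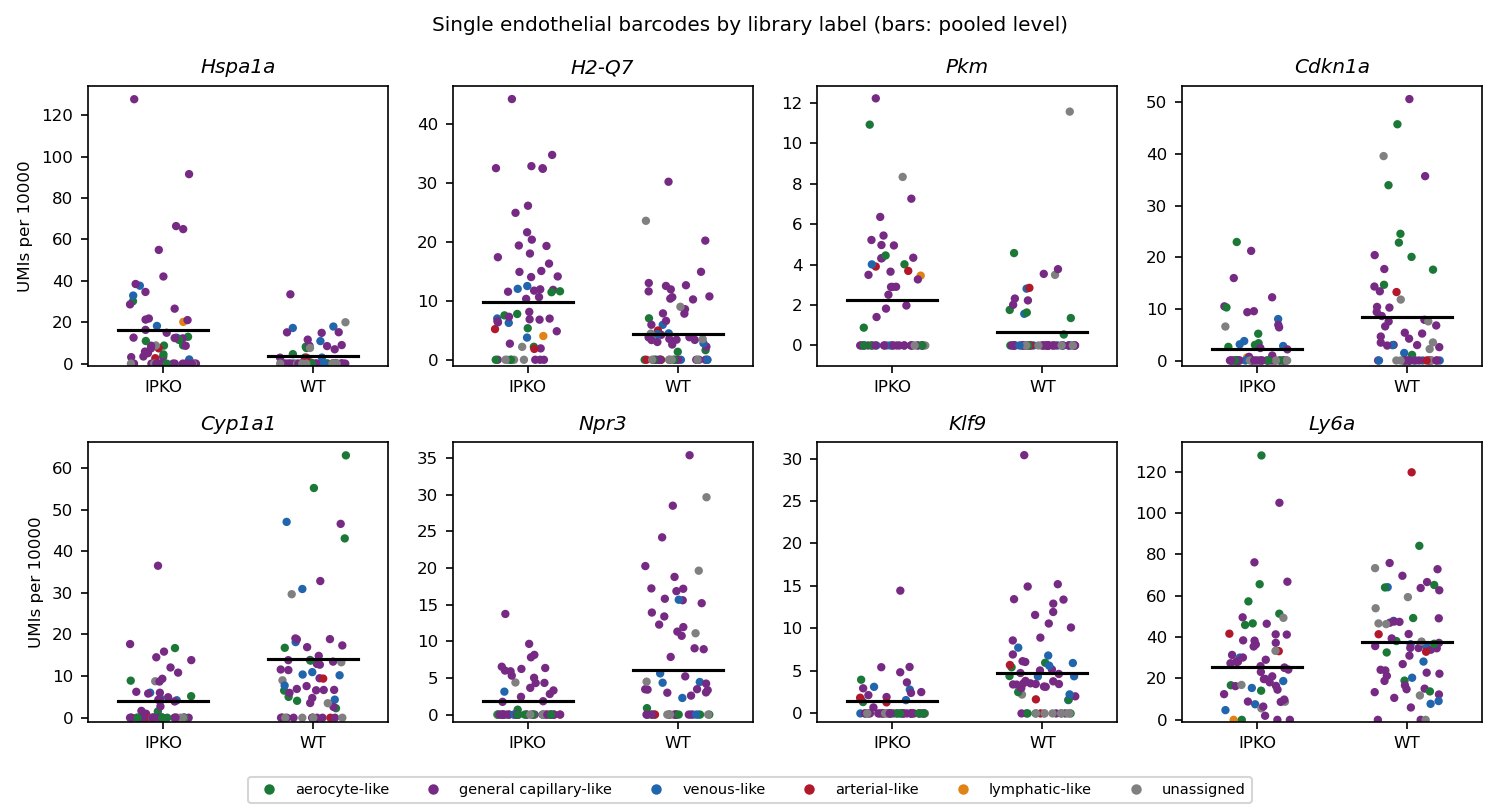
UMIs per 10000 of 8 genes in each endothelial barcode, IPKO left and WT right in each panel, coloured by vessel class, with the pooled level as a bar. The libraries overlap for every gene, with Hspa1a detected in 43 barcodes labelled IPKO and 23 labelled WT, and Cdkn1a in 24 labelled IPKO and 39 labelled WT.

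Genes of endothelial identity and signalling follow, to be read against the 3.54% of all genes that were at least 2-fold apart in either direction. Of 26 pan-endothelial genes 0 were at least 2-fold higher or lower, with a median of -0.23, and 13 endothelial transcription factors had a median of 0.09. Junction genes had a median of 0.01. With barcodes of up to 20% Sftpc admitted, the factor and junction medians were -0.35 and -0.50. Of 12 aerocyte genes all 12 were below 0 (median -0.47), and 1 was at least 2-fold lower, Ednrb, with 50 and 97 UMIs (-1.01, -1.53 to -0.50). That call lies at the threshold: the ratio was -0.39 with barcodes weighted alike and -1.60 without the barcodes that held lymphocyte or myeloid genes. Without the 2 barcodes labelled IPKO that held at least 3 lymphocyte or myeloid genes the aerocyte median was -0.87, and in general capillary-like barcodes alone it was 0.15. Each of these medians covers only list genes with at least 50 UMIs in the barcodes used, so the genes are not the same 12. In general capillary-like barcodes Ednrb (1 and 0 UMIs), Car4 (37 and 9) and Emp2 (35 and 13) fell short of that minimum. The general capillary list had a median of -0.29, the venous list -0.42 and the arterial list -0.13, with 0 genes at least 2-fold apart in each. Pooled ratios weight the classes by their UMIs. Aerocyte-like barcodes held 54859 of 260523 UMIs labelled IPKO and 62326 of 251439 labelled WT, and venous-like barcodes 24356 and 38305. The part of these class shares in the medians of the vessel lists was not tested. BMP and ALK1 pathway genes, which govern vessel stability, had a median of -0.35 with 7 of 9 below 0, among them the receptor gene Eng (293 and 387 UMIs, -0.45, -0.68 to -0.23) and the target Id1 (-0.44, -0.66 to -0.23). Of 5 Notch genes, Hes1, a transcriptional target, was at least 2-fold lower, with 38 and 85 UMIs (-1.21, -1.80 to -0.64). VEGF and angiopoietin genes had a median of -0.36 with 7 of 7 below 0, Kdr at -0.54 (-0.85 to -0.23) and Flt1 at -0.43 (-0.71 to -0.15). By class, Kdr had 74 and 157 UMIs in aerocyte-like barcodes, log2 ratio -0.90 (-1.32 to -0.49). In general capillary-like barcodes it had 62 and 47 UMIs, log2 ratio 0.22 (-0.35 to 0.80).

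Of the genes that respond to blood flow, Klf2 stood at 2618 and 2048 CPM (0.35, 0.19 to 0.52, but -0.16 when barcodes of up to 20% Sftpc were admitted) and Klf4 at 1182 and 1384 CPM (-0.23, -0.45 to 0.00). S1pr1, the sphingosine phosphate receptor that keeps the barrier tight, had 144 and 252 UMIs (-0.86, -1.16 to -0.56), and Nos3, endothelial nitric oxide synthase, had 7 and 22. Ly6a stood lower in the library labelled IPKO (-0.56, -0.71 to -0.42), less so in general capillary-like barcodes (409 and 407 UMIs, log2 ratio -0.18). Mitochondrially encoded transcripts had a median log2 ratio of 0.09 in endothelial (-0.03 among barcodes of at least 1000 genes) and -0.48 in AT2 barcodes, and endoplasmic reticulum stress genes -0.34 and -0.35, the endothelial value turning to 0.15 in general capillary-like barcodes alone.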

How the data were processed

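Single cells were profiled with a 10x Genomics 3' kit (1 library labelled IPKO, 1 labelled WT). The deposited values are UMI counts per gene and barcode, made by the authors with Cell Ranger 4.0.0 on GRCm38 (mm10), per the file headers and the submitters' processing notes. Counts were summed over the endothelial barcodes of a library and given as CPM. Log2 ratios carry exact conditional binomial intervals, CPM exact Poisson and shares Clopper-Pearson intervals. A gene at 0 was set to a floor of 3 counts per library. Ratios were taken for genes with at least 50 UMIs over both libraries and called at 2-fold. No doublet caller was run; the alternatives on the Sftpc limit treat barcodes of mixed content. AT2 RNA is the AT2-list share in endothelial barcodes over that in AT2 barcodes.

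The members, the 39 gene lists and the vessel core genes were chosen with earlier results of these data known, and the class rule after seeing these counts. Named were the genes of the rule, the sort antigens, Ptgir, up to 4 list members with most UMIs, the 10 highest and lowest ratios, the 15 genes farthest above AT2 barcodes and genes of 2 earlier AT2 lists; others were named after their values were seen. Of 547 list entries 544 matched (Trac, Trbc1 and Trbc2 did not). The ratio script was tested on simulated data. Software was Python 3.11.15, numpy 2.4.6, scipy 1.17.1, pandas 2.3.3 and matplotlib 3.10.9. Promoter sequences are from RefSeq (GRCm38.p6).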

Additional observations from a re-analysis of the deposited data

Results flagged for a closer look

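Among the genes called at 2-fold between the libraries in endothelial barcodes, 4 were picked for a closer look. Each had a ratio of the opposite sign in AT2 barcodes of the same libraries. They are not all such genes, since Cyp1a1, described above, was also of opposite sign. How many called genes were of opposite sign was not counted. Each comparison is of a single pair of libraries, and the difference between the populations was not tested. Cdkn1a had a log2 ratio, IPKO over WT, of -1.96 in endothelial barcodes and 0.07 in AT2 barcodes. Btg2 had -1.06 in endothelial barcodes and 0.49 in AT2 barcodes. Scgb1a1 had 2.53 in endothelial barcodes, 1.20 without the highest barcode of each library, and -1.95 in AT2 barcodes. Pkm had 1.74 in endothelial barcodes and -0.18 in AT2 barcodes.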

How the results depend on the processing

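The ratios were recomputed under 16 other settings. Signs were followed for list medians, the 10 highest and 10 lowest ratios and some further picked genes. Of these values, 0 that were past 2-fold reversed in sign. The remaining genes past 2-fold were not followed, and a gene with too few UMIs was left out of a setting. List medians were retaken over the genes that met the UMI minimum in each setting, so their genes differ between settings. Among these settings, general capillary-like barcodes alone and the removal of the highest barcode of each gene were chosen after seeing the data. So was a class rule of at least 2 core genes, which bears on class counts and not on ratios. The median of all genes stayed within 0.1 of 0 except at -0.18 with Sftpc below 20%. No paired analysis was possible because each genotype has 1 library. The Sftpc limit moved the AT2 share most: below 10% or 5% it was 4.12% labelled IPKO and 3.77% labelled WT, and below 20% it was 43.1% and 18.1%, against 10.7% and 9.54% as reported; at least 3 of the 8 genes gave 11.5% labelled IPKO. Genes at least 2-fold higher numbered 29 as reported, 90 with Sftpc below 20%, 174 with a minimum of 20 UMIs, 847 with no minimum, 17 in general capillary-like barcodes and 19 without the highest barcode of each gene. Genes at least 2-fold lower numbered 35 as reported and, in the same order, 141, 186, 923 and 20, and 53 with barcodes weighted alike. Cdkn1a ranged from -2.22 to -1.55 and Hspa1a from 1.97 to 2.59 over these settings, and Chil1 reached -0.03 after subtraction of AT2 RNA. The endothelial share of kept barcodes ranged from 0.593% to 0.880% labelled IPKO and from 0.841% to 0.964% labelled WT. The causes of these shifts were not tested. The number of endothelial barcodes limits the class shares, and their UMIs limit the ratios of genes near the minimum of 50.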
